A study of Homo sapiens with 16 samples.

Results

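The genes described here are 10 heat shock chaperone genes and partners: HSPA1A, HSPA8, HSPH1, DNAJB1, BAG3, HSP90AA1, HSP90AB1, HSPB1, HSPD1 and HSPE1. They were chosen by name, and of 27 probe sets that list a member, the brightest on average over the 16 arrays stands for each gene. The 10 genes are 10 of the 20875 features measured, a feature being a gene or, where a probe set lists several genes, that shared annotation. For 8 members the probe set lists a single gene. HSPA1A was read by a probe set that also lists HSPA1B, its near-identical neighbour, and HSPA8 by a probe set that also lists SNORD14C and SNORD14D, small nucleolar RNAs encoded in HSPA8 introns, so these values belong to the shared annotation.

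The cells were MIA PaCa-2 (MiaPaca-2 in the labels), an established human pancreatic cancer line, so a single line stands for the disease. PP242 inhibits the mTOR kinase. The 4 groups of 4 arrays were polysome RNA after PP242 (Poly 242), polysome RNA after vehicle (Poly NT), cytosolic RNA after PP242 (Total 242) and cytosolic RNA after vehicle (Total NT), with PP242 given at 2.5 µM and DMSO as vehicle, both for 12 hours. Polysome RNA was pooled from sucrose gradient fractions holding mRNAs with more than 3 ribosomes. All cells were otherwise unmodified, and no group was heat shocked per the labels.

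Heat shock proteins bind unfolded or partly folded proteins. HSP70 proteins (HSPA1A, HSPA8) work in cycles of ATP binding and hydrolysis, with J-domain proteins such as DNAJB1 stimulating hydrolysis and with HSPH1 and BAG proteins releasing the nucleotide. HSP90 proteins take over late folding of clients such as kinases and steroid receptors, HSPB1 is a small ATP-independent holdase, and HSPD1 with its lid HSPE1 forms the folding chamber of the mitochondrial matrix. Transcription of many of these genes is driven by heat shock factor 1 (HSF1), which binds the heat shock element, an array of alternating GAA and TTC blocks.

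The 250 bases before each start site in the RefSeq promoter table (GRCh38.p14) were searched, in which all 10 members were found, with 16 windows because some genes have several starts. Some start sites lie inside the span of the gene, and the matches shown are upstream of the starts at 123062136 for HSPA8, 102087044 for HSP90AA1, 44247943 for HSP90AB1, 14518397 for DNAJB1 and 197499840 for HSPD1. For HSPA1A and HSPB1 the start is the first base of the gene. A short form of the element (GAANNTTC or TTCNNGAA) and a long form (GAANNTTCNNGAA or TTCNNGAANNTTC) were searched. Each short form is its own reverse complement and the long forms are each other's, so both strands are covered, and every long match contains a short one. The short form was present in 11.6% of 35116 windows and the long form in 0.441% of them, or in any window of 14% and 0.557% of 27305 genes. Counting a gene once for any of its windows, the long form was found for 4 members (HSPA8, HSP90AA1, HSP90AB1 and HSPD1), the short form alone for 3 (HSPA1A, DNAJB1 and HSPB1), and neither for BAG3, HSPH1 and HSPE1. The matches below are shown 5′ to 3′ on the strand of the gene with up to 6 flanking bases, and capitals mark the matched letters. They are letter matches in a window and not shown to be bound sites.
HSPA1A chr6:31815431-31815450 (+): accctgGAATATTCccgacc
HSPA8 distal chr11:123062348-123062372 (-): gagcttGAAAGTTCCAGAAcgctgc
HSPA8 proximal chr11:123062173-123062197 (-): ggccccTTCTGGAAGGTTCtaagat
HSP90AA1 distal chr14:102087114-102087138 (-): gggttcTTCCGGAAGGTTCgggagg
HSP90AA1 proximal chr14:102087099-102087118 (-): ggaggcTTCTGGAAaaagcg
HSP90AB1 distal chr6:44247772-44247796 (+): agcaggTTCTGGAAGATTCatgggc
HSP90AB1 proximal chr6:44247825-44247849 (+): agattgTTCTGGAAGCTTCtggatt
DNAJB1 distal chr19:14518461-14518480 (-): ggggcgGAAGGTTCtggagg
DNAJB1 proximal chr19:14518431-14518450 (-): gctctgGAAGCTTCcgccgg
HSPB1 chr7:76302485-76302504 (+): acgagaGAAGGTTCcagatg
HSPD1 chr2:197500062-197500090 (-): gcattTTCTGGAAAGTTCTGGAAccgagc

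BAG3 and HSPE1, the members called under PP242 in both RNA pools, have no match, which says only that these letters are not in the window. The HSPD1 match shown above, at chr2:197500062-197500090, lies upstream of HSPE1 too, beyond the far end of its 250-base window. The BAG3 window is given in full. The HSPE1 window runs on into HSPD1, and shown of it is the stretch between the gene starts of HSPD1 and HSPE1, which lie head to head on chromosome 2, at 197500274 on the minus strand and at 197500379 on the plus strand, 104 bases apart.
BAG3 upstream chr10:119651130-119651379 (+): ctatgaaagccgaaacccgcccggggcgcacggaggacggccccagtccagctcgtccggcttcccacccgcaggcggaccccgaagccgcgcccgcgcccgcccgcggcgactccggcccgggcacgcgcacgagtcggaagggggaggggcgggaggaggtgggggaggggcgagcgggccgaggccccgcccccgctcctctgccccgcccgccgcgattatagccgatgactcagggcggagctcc
HSPD1 to HSPE1 chr2:197500275-197500378 (+): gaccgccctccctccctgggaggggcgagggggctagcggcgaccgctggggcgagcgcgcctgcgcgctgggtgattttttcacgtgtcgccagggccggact

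In cytosolic RNA, 6 of the 10 members were lower after PP242 than after vehicle, HSPE1, HSPA1A/HSPA1B, HSPH1, BAG3, HSP90AA1 and HSPD1, and none was higher. HSPE1 fell most, to 2.25-fold below vehicle, and the other called members fell 1.24-fold to 1.65-fold. In polysome RNA, BAG3 and HSPE1 alone passed the test, both lower, by 1.61-fold and 1.53-fold. A member was called at an adjusted p under 0.05 (limma, Benjamini-Hochberg over all 20875 features). Of all features, 7.77% were called lower and 16.2% in either direction in cytosolic RNA, against 6.46% and 13.2% in polysome RNA. The median effect over the members was -0.45 log2 in cytosolic RNA, where the median over all features was 0.04, and -0.17 in polysome RNA, where it was -0.005. Arrays report RNA in bulk, so fewer copies per cell and fewer cells carrying the mRNA cannot be told apart.

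**Figure D1:**
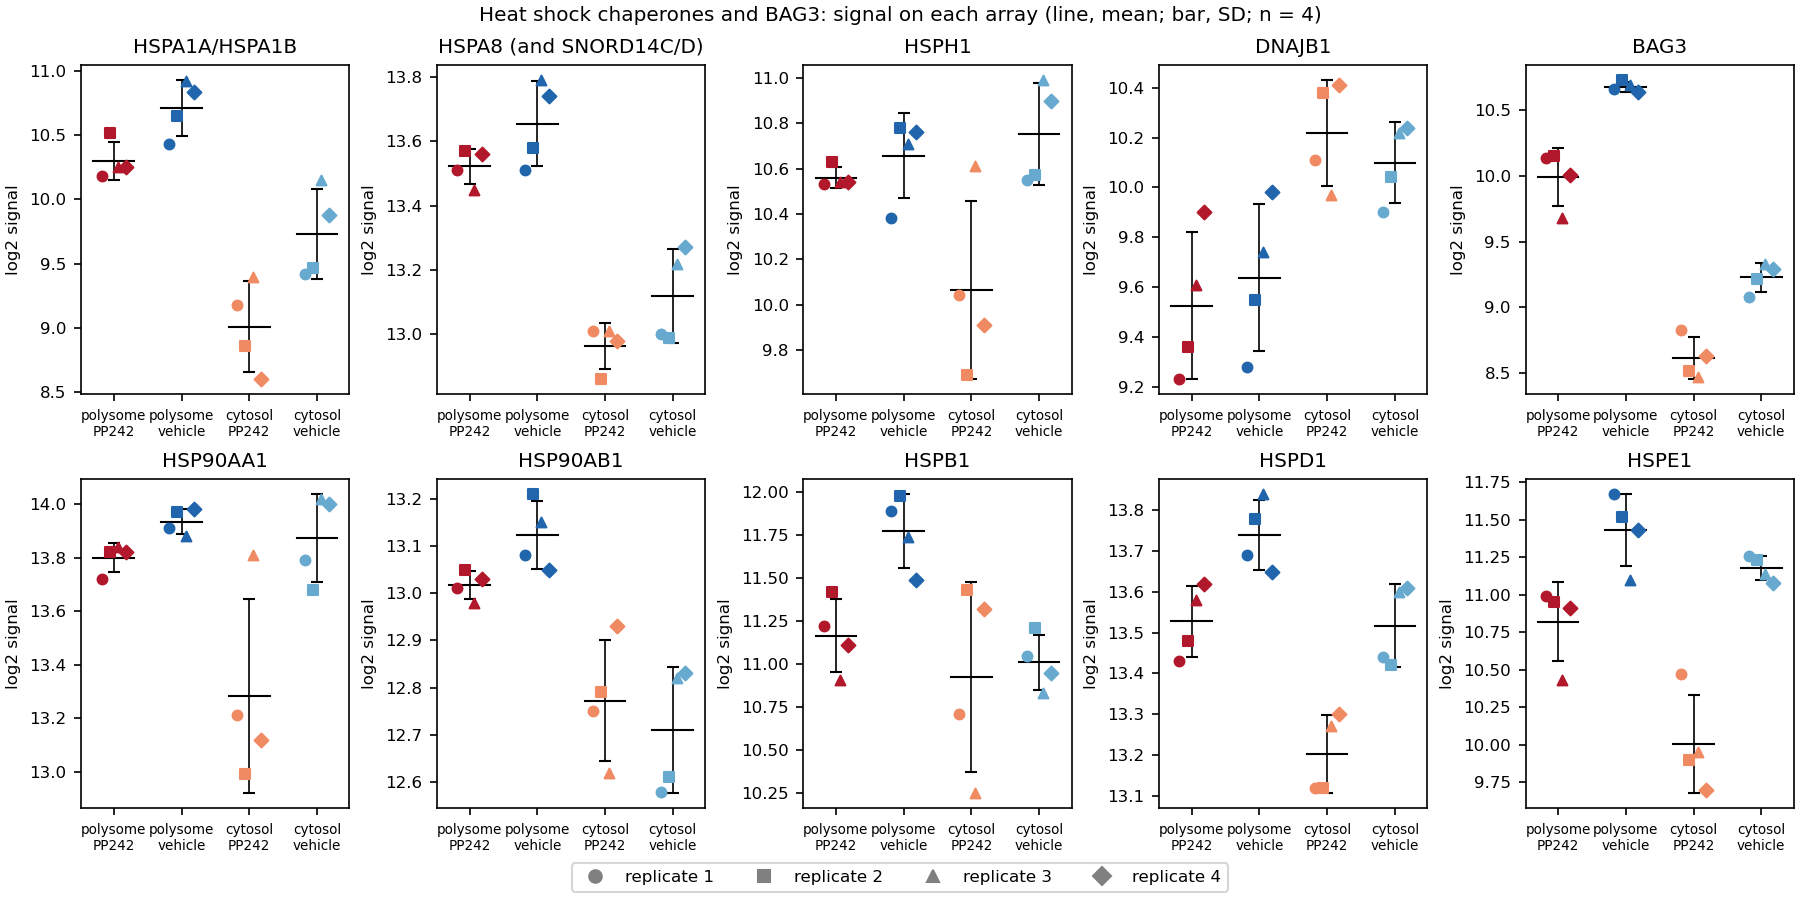
Log2 signal of each member on every array, by group; points are arrays, horizontal lines group means and bars the SD (n = 4). BAG3 lies at 9.68 to 10.15 on the polysome PP242 arrays and at 10.64 to 10.73 on the polysome vehicle arrays, while the DNAJB1 arrays of both treatments overlap in both pools.

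**Figure D2:**
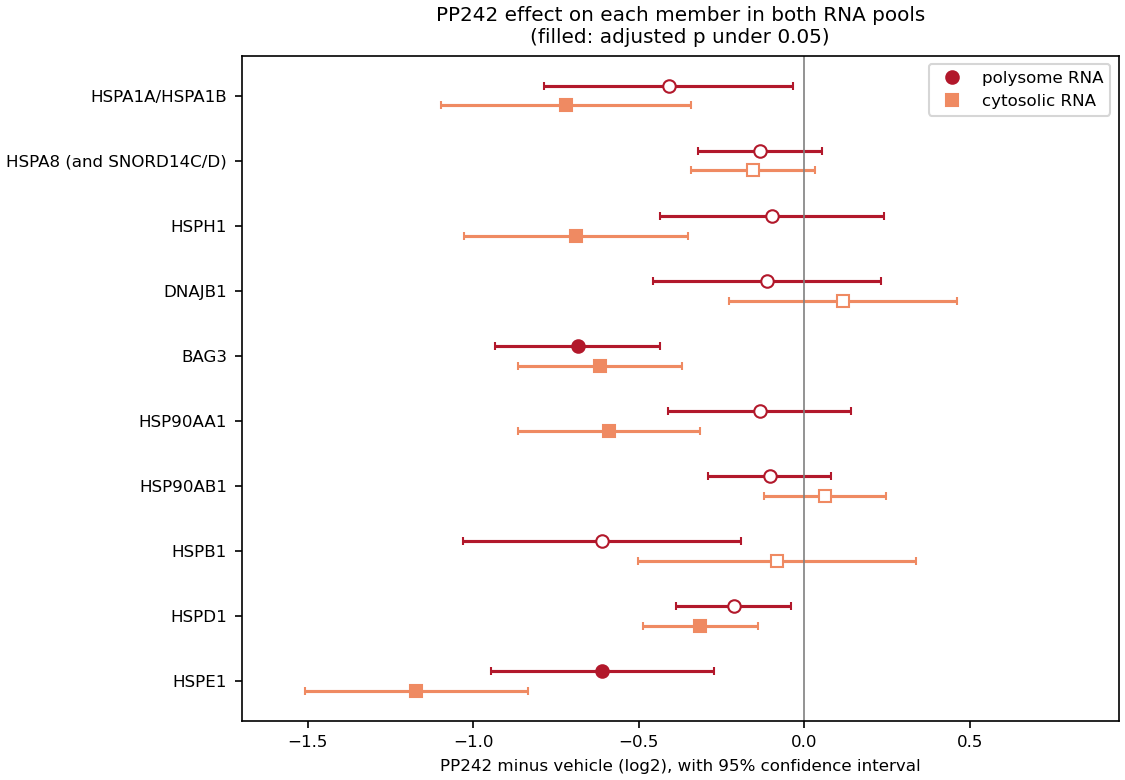
Effect of PP242 over vehicle (log2, limma estimate with its 95% interval) for each member in polysome and cytosolic RNA; filled points passed an adjusted p of 0.05. HSPE1 in cytosolic RNA lies lowest, at -1.17, and 2 members are filled in polysome RNA against 6 in cytosolic RNA.

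The inducible HSP70 probe set, HSPA1A/HSPA1B (HSPA1A at chr6:31815543-31817942, GRCh38.p14), read 9.18, 8.86, 9.40 and 8.60 log2 in cytosolic PP242 arrays, against 9.42, 9.47, 10.15 and 9.88 in cytosolic vehicle arrays. All 4 PP242 arrays lay below all 4 vehicle arrays, and the fall was 0.72 ± 0.18 (limma adjusted p = 0.00964). On polysomes it read 10.18, 10.52, 10.25 and 10.25 after PP242 and 10.43, 10.65, 10.92 and 10.84 after vehicle. These groups overlapped, and the difference of -0.41 ± 0.18 did not pass (adjusted p = 0.163). Its upstream window is shown because it is the classical inducible heat shock promoter and holds 1 short match, in capitals.
HSPA1A upstream chr6:31815293-31815542 (+): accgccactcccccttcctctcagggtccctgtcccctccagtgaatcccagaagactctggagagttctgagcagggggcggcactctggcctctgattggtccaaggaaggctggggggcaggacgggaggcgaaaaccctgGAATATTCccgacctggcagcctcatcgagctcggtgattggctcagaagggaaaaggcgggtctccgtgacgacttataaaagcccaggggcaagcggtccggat

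HSPA8 (chr11:123057489-123062462), the constitutive HSP70 that also works in clathrin uncoating and chaperone-mediated autophagy, was not called in either pool. Its shared probe set read 13.01, 12.86, 13.01 and 12.98 in cytosolic PP242 arrays and 13.00, 12.99, 13.22 and 13.27 in cytosolic vehicle arrays. The groups overlapped there and on polysomes, with differences of -0.16 ± 0.09 (limma adjusted p = 0.259) and -0.13 ± 0.09 (adjusted p = 0.430). The 95% intervals, -0.34 to 0.03 and -0.32 to 0.05, leave out a fall as large as that of the HSPA1A/HSPA1B probe set used, in cytosolic RNA. Other probe sets came closer, with -0.32 for an HSP70 probe set that also lists HSPA1L and -0.44 ± 0.16 for a further HSPA8 probe set (limma adjusted p = 0.0933). That the inducible and constitutive members responded differently was not tested.

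DNAJB1 (chr19:14514769-14560391), the J-domain partner of HSPA1A and HSPA8, read 10.11, 10.38, 9.97 and 10.41 in cytosolic PP242 arrays and 9.90, 10.04, 10.22 and 10.24 in cytosolic vehicle arrays. The groups overlapped, at 0.12 ± 0.16 (limma adjusted p = 0.675), and likewise on polysomes, at -0.11 ± 0.16 (adjusted p = 0.777). The polysome arrays of both treatments were lowest in replicate 1 and highest in replicate 4, at 9.23 and 9.90 after PP242 and at 9.28 and 9.98 after vehicle.

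HSPH1 (chr13:31134973-31162388), the HSP110 that serves as a nucleotide exchange factor for HSP70, read 10.04, 9.69, 10.61 and 9.91 in cytosolic PP242 arrays, against 10.55, 10.57, 10.99 and 10.90 in cytosolic vehicle arrays. It fell by 0.69 ± 0.16 (limma adjusted p = 0.00608), although replicate 3 after PP242 lay above the 2 lowest vehicle arrays. In polysome RNA the difference was -0.10 ± 0.16 (adjusted p = 0.810), with overlapping arrays.

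BAG3 (chr10:119651380-119677819), the co-chaperone that links HSP70 to selective autophagy and to the small heat shock proteins, was lower in both pools. On polysomes it read 10.14, 10.15, 9.68 and 10.01 after PP242, against 10.66, 10.73, 10.69 and 10.64 after vehicle. In cytosolic RNA it read 8.83, 8.52, 8.47 and 8.63 after PP242, against 9.08, 9.22, 9.33 and 9.29 after vehicle. The groups did not overlap in either pool. BAG3 fell by 0.69 ± 0.12 on polysomes (limma adjusted p = 5.31e-04) and by 0.62 ± 0.12 in cytosolic RNA (adjusted p = 0.00134). The call held in each pool when any replicate was left out and within replicates 1 and 2 (-0.55 and -0.48) and replicates 3 and 4 (-0.82 and -0.76) alone, polysome value first.

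HSP90AA1 (chr14:102080742-102139749), the stress-inducible cytosolic HSP90, read 13.21, 12.99, 13.81 and 13.12 in cytosolic PP242 arrays, against 13.79, 13.68, 14.02 and 14 in cytosolic vehicle arrays. It fell by 0.59 ± 0.13 (limma adjusted p = 0.00427), with replicate 3 after PP242 inside the vehicle range. On polysomes it read 13.72, 13.82, 13.84 and 13.82 after PP242 and 13.91, 13.97, 13.88 and 13.98 after vehicle. All PP242 arrays lay below all vehicle arrays there, but by only -0.14 ± 0.13, which did not pass (adjusted p = 0.630).

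HSP90AB1 (chr6:44246194-44253883), the constitutive cytosolic HSP90, was not called in either pool. It read 12.75, 12.79, 12.62 and 12.93 in cytosolic PP242 arrays and 12.58, 12.61, 12.82 and 12.83 in cytosolic vehicle arrays, which overlap. The differences were 0.06 ± 0.09 in cytosolic RNA (limma adjusted p = 0.678) and -0.11 ± 0.09 on polysomes (adjusted p = 0.558). The log2 ratio of HSP90AA1 to HSP90AB1 on the same array averaged 0.51 ± 0.47 in cytosolic PP242 RNA and 1.16 ± 0.06 in cytosolic vehicle RNA (SD, n = 4 each). This difference of -0.65 did not pass (exact two-sided permutation test, p = 0.0857, adjusted over 4 ratio tests p = 0.171), and the polysome difference was -0.03 (exact p = 0.657). The ratio pairs were chosen after the values were seen.

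HSPB1 (chr7:76302673-76304292), the small heat shock protein HSP27, read 11.22, 11.42, 10.91 and 11.11 on polysomes after PP242, against 11.89, 11.98, 11.74 and 11.49 after vehicle. No PP242 array reached the lowest vehicle array. The difference of -0.61 ± 0.20 lay just outside the threshold (limma adjusted p = 0.0509), and it passed with the replicate number as a block (adjusted p = 0.00624). In cytosolic RNA HSPB1 read 10.71, 11.43, 10.25 and 11.32 after PP242 and 11.05, 11.21, 10.83 and 10.95 after vehicle. There the PP242 arrays lay on both sides of the vehicle arrays, at -0.08 ± 0.20 (adjusted p = 0.821).

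HSPE1 (chr2:197500379-197503449), the lid of the mitochondrial chaperonin, read 10.47, 9.90, 9.95 and 9.70 in cytosolic PP242 arrays, against 11.26, 11.23, 11.14 and 11.08 in cytosolic vehicle arrays. The groups did not overlap, and HSPE1 fell by 1.17 ± 0.16 (limma adjusted p = 5.06e-05). On polysomes it read 10.99, 10.95, 10.43 and 10.91 after PP242, against 11.67, 11.52, 11.10 and 11.43 after vehicle. These groups did not overlap either, and the fall was 0.61 ± 0.16 (adjusted p = 0.0146). The polysome call was lost without replicate 2 (adjusted p = 0.0895) or replicate 4 (adjusted p = 0.0530), and under quantile scaling (-0.48, adjusted p = 0.0755), cyclic loess (-0.50, adjusted p = 0.0560) and with replicates 3 and 4 alone (adjusted p = 0.136). The cytosolic call held under each of these.

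HSPD1 (chr2:197486584-197500274), the barrel of the same chaperonin, read 13.12, 13.12, 13.27 and 13.30 in cytosolic PP242 arrays, against 13.44, 13.42, 13.60 and 13.61 in cytosolic vehicle arrays. Every PP242 array lay below every vehicle array, and HSPD1 fell by 0.32 ± 0.08 (limma adjusted p = 0.0133). That call was lost without replicate 1, 2 or 4 (adjusted p = 0.0623, 0.0810 and 0.0637). On polysomes it read 13.43, 13.48, 13.58 and 13.62 after PP242, against 13.69, 13.78, 13.84 and 13.65 after vehicle. The polysome arrays did not overlap. The difference of -0.21 ± 0.08 did not pass in the main fit (limma adjusted p = 0.107), but did with the replicate number as a block (adjusted p = 0.0392). With the block, HSPD1 and HSPB1 joined BAG3 and HSPE1 as 4 of 10 members called lower on polysomes, beside 9.6% of all features called lower under the block.

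The divergently transcribed HSPD1 and HSPE1 were compared on the same arrays. The log2 ratio of HSPE1 to HSPD1 averaged -3.20 ± 0.40 in cytosolic PP242 RNA and -2.34 ± 0.18 in cytosolic vehicle RNA (SD, n = 4 each), and the arrays did not overlap. The difference was -0.86 (exact two-sided permutation test, p = 0.0286, the smallest this design allows, and 0.114 adjusted over the 4 ratio tests). Taken by replicate number, the differences were -0.47, -1.03, -0.86 and -1.07, all negative. On polysomes the difference was -0.40 (exact p = 0.143, adjusted 0.190). A single ratio could not reach an adjusted p under 0.05 in this design, and the ratios were chosen with the values in view, so these are descriptions.

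Of the 10 members, 4 were fully separated and lower in cytosolic RNA and 5 on polysomes, beside 8.3% and 9.74% of all features. The cytosolic PP242 arrays were the most variable group, with a median feature SD of 0.245 against 0.122 in cytosolic vehicle, and their replicates 2 and 4 carried the lowest array weights (0.362 and 0.254). Without those 2 arrays, 3 members were called lower in cytosolic RNA, BAG3, HSPE1 and HSPD1. HSPA1A/HSPA1B was then at -0.44 (limma adjusted p = 0.185), HSP90AA1 at -0.36 (adjusted p = 0.101) and HSPH1 at -0.43 (adjusted p = 0.130). Leaving out single replicates ended cytosolic calls of these 3 members and of HSPD1, but not of BAG3 or HSPE1.

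The polysome effect minus the cytosolic effect asks whether PP242 changed how much of an mRNA was on polysomes, relative to other mRNAs. Polysome array medians were 4.6 to 4.63 after PP242 and 4.57 to 4.61 after vehicle. A change shared by all mRNAs would not be seen in this test. No member passed this test in limma, and 0% of all features did, although 1837 features (8.8%) and 3 members had an unadjusted p under 0.05. A regression of polysome on cytosolic values called 5 features and averaging the probe sets of each gene called 1. The 3 members were HSPH1 at 0.59 ± 0.23 (unadjusted p = 0.0180), HSPE1 at 0.56 ± 0.23 (unadjusted p = 0.0230) and HSP90AA1 at 0.46 ± 0.19 (unadjusted p = 0.0244), all with a limma adjusted p of 0.562. With the probe sets used, each read lower by less on polysomes than in cytosolic RNA. The HSPH1 value rests on the probe set, since 208744_x_at gave -0.19 on polysomes and 0.00 in cytosolic RNA, an association effect of -0.19.

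The polysome minus cytosolic value of HSPE1, taken by replicate, was 0.52, 1.05, 0.48 and 1.21 after PP242, against 0.41, 0.29, -0.04 and 0.35 after vehicle. HSPE1 was the single member whose replicates did not overlap in this measure, and 2.9% of all features were separated in that direction. For HSPH1 the values were 0.49, 0.94, -0.07 and 0.63 after PP242 and -0.17, 0.21, -0.28 and -0.14 after vehicle, which overlap in replicate 3. HSPB1 lay on the other side, with 0.51, -0.01, 0.66 and -0.21 after PP242 and 0.84, 0.77, 0.91 and 0.54 after vehicle. Its difference was -0.53 ± 0.28 (limma adjusted p = 0.573). For BAG3 the values were 1.31, 1.63, 1.21 and 1.38 after PP242 and 1.58, 1.51, 1.36 and 1.35 after vehicle, which overlapped, at -0.07 ± 0.17 (adjusted p = 0.911, 95% interval -0.42 to 0.28).

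**Figure D3:**
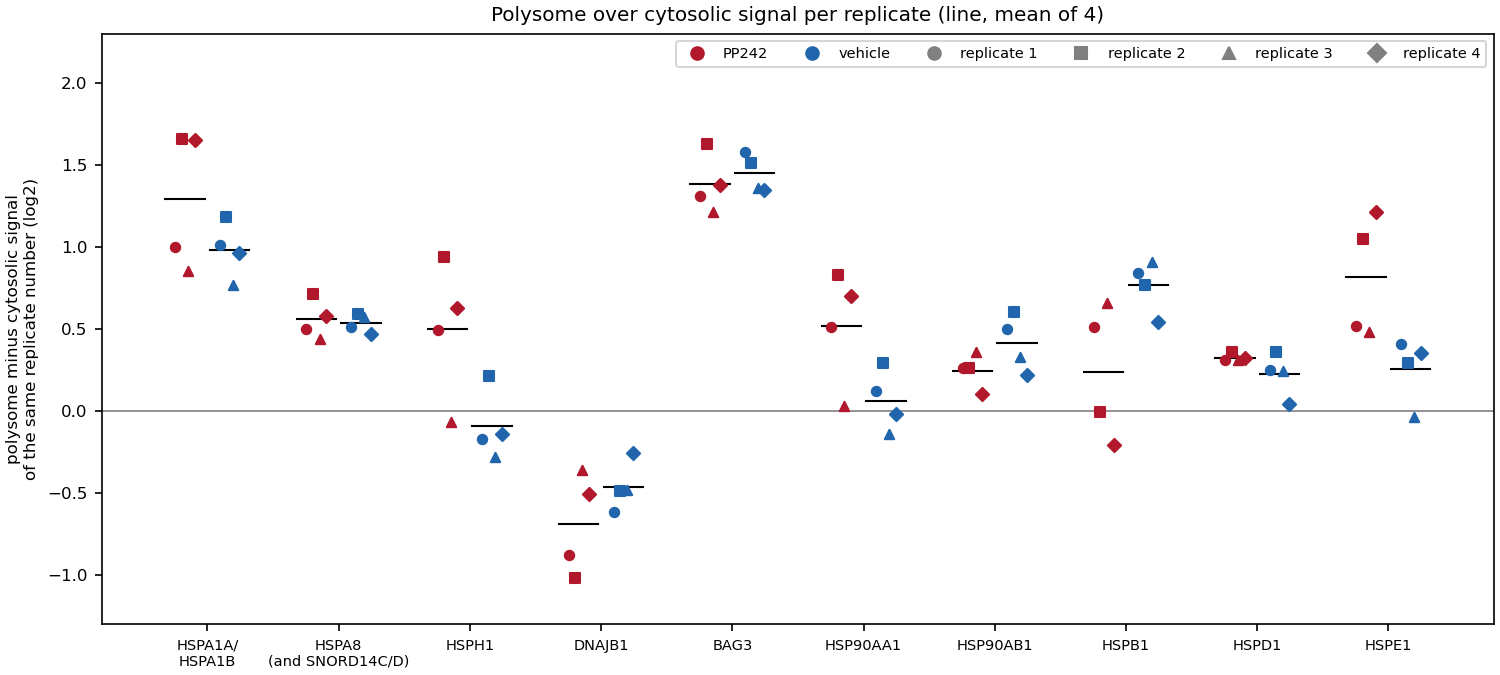
Polysome minus cytosolic log2 signal per replicate number for each member, PP242 in red, left of vehicle in blue, with a line at the mean of 4. HSPE1 reaches 0.48 to 1.21 after PP242 and -0.04 to 0.41 after vehicle, while the BAG3 values of both treatments overlap.

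Levels in the 2 RNA pools were compared within each treatment. The pools appear to have been normalized apart, with array medians of 4.57 to 4.63 in polysome and 5 to 5.05 in cytosolic RNA, so an offset shared by all genes is not known. On the deposited scale the median feature was -0.18 polysome over cytosolic after PP242 and -0.16 after vehicle. After PP242, 8 members were higher on polysomes and 1 lower, and after vehicle 6 were higher and 1 lower, beside 16.1% and 16.8% of all features called higher and 54.2% and 52.7% called in either direction. Over all features the calls were 3364 higher and 7940 lower after PP242 and 3515 higher and 7479 lower after vehicle, whereas quantile scaling of all arrays together gave 4952 higher and 4668 lower after PP242 and 4976 higher and 4247 lower after vehicle. With quantile scaling 5 members were called higher and 1 lower after PP242 and 3 higher and 1 lower after vehicle. With cyclic loess 3 were higher and 2 lower after PP242 and 2 higher and 3 lower after vehicle. Calls over all features under cyclic loess are not given here, so its member counts stand without that background. The signs of HSPA8, HSP90AA1, HSP90AB1, HSPB1, HSPD1 and HSPE1 turned in at least 1 treatment under another scaling. BAG3, HSPA1A/HSPA1B and DNAJB1 kept their direction and call in both treatments under the deposited scale, quantile scaling and cyclic loess. BAG3 was higher on polysomes by 1.38 ± 0.12 after PP242 and by 1.45 ± 0.12 after vehicle, HSPA1A/HSPA1B was higher by 1.29 ± 0.18 and 0.98 ± 0.18, and DNAJB1 was lower, at -0.69 ± 0.16 and -0.46 ± 0.16. Relative to the median feature, BAG3 in vehicle cells was 1.61 higher on the deposited scale, 1.13 after quantile scaling and 1.20 after cyclic loess. HSPE1 was at 0.82 ± 0.16 after PP242, a call kept under all 3 scalings, and at 0.25 ± 0.16 after vehicle (limma adjusted p = 0.196), where quantile scaling gave -0.099 and cyclic loess -0.093. The DNAJB1 call after vehicle was lost without replicate 1, 2 or 3 (adjusted p = 0.0697, 0.0924 and 0.0651). Other probe sets disagreed with those used for some members. HSPA8 210338_s_at was lower on polysomes after PP242, at -0.55 (adjusted p = 0.0067), where the probe set used was at 0.56. Among the HSPH1 probe sets after vehicle, 208744_x_at was called higher, at 0.89, and 235573_at lower, at -0.58. HSP90AA1 211969_at was called higher after vehicle, at 0.72 (limma adjusted p = 4.1e-05), where the probe set used was at 0.06. The other DNAJB1 probe set, 200664_s_at, was called lower after PP242 (limma adjusted p = 0.0059). After vehicle it was not called, at -0.22 (adjusted p = 0.292).

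For the PP242 effects too, other probe sets of a member were used as a check where there was more than 1. All 4 HSP90AA1 probe sets were called lower in cytosolic RNA, at -0.90, -0.73, -0.37 and -0.59, and 1 of them also on polysomes, at -0.47 (limma adjusted p = 0.0279). The HSPH1 probe sets disagreed: 206976_s_at, the one used, and 235573_at both read -0.69 in cytosolic RNA, whereas 208744_x_at, of nearly the same mean signal (10.49, against 10.51 for the one used), read 0.00. The suffix x marks probes that may match other transcripts, and the HSPA8 probe set used carries it as well. A further HSPD1 probe set fell by 0.57 in cytosolic RNA (adjusted p = 0.0373) and by 0.83 on polysomes (adjusted p = 0.0034). A second HSP70 probe set, which lists HSPA1L as well, read -0.67 on polysomes (adjusted p = 0.0361) and -0.32 in cytosolic RNA, the reverse ranking of the one used. The 4 HSPA8 probe sets and the 3 of HSP90AB1 were not called in cytosolic RNA, and BAG3, HSPB1 and HSPE1 have a single probe set each, so they have no such check.

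**Figure D4:**
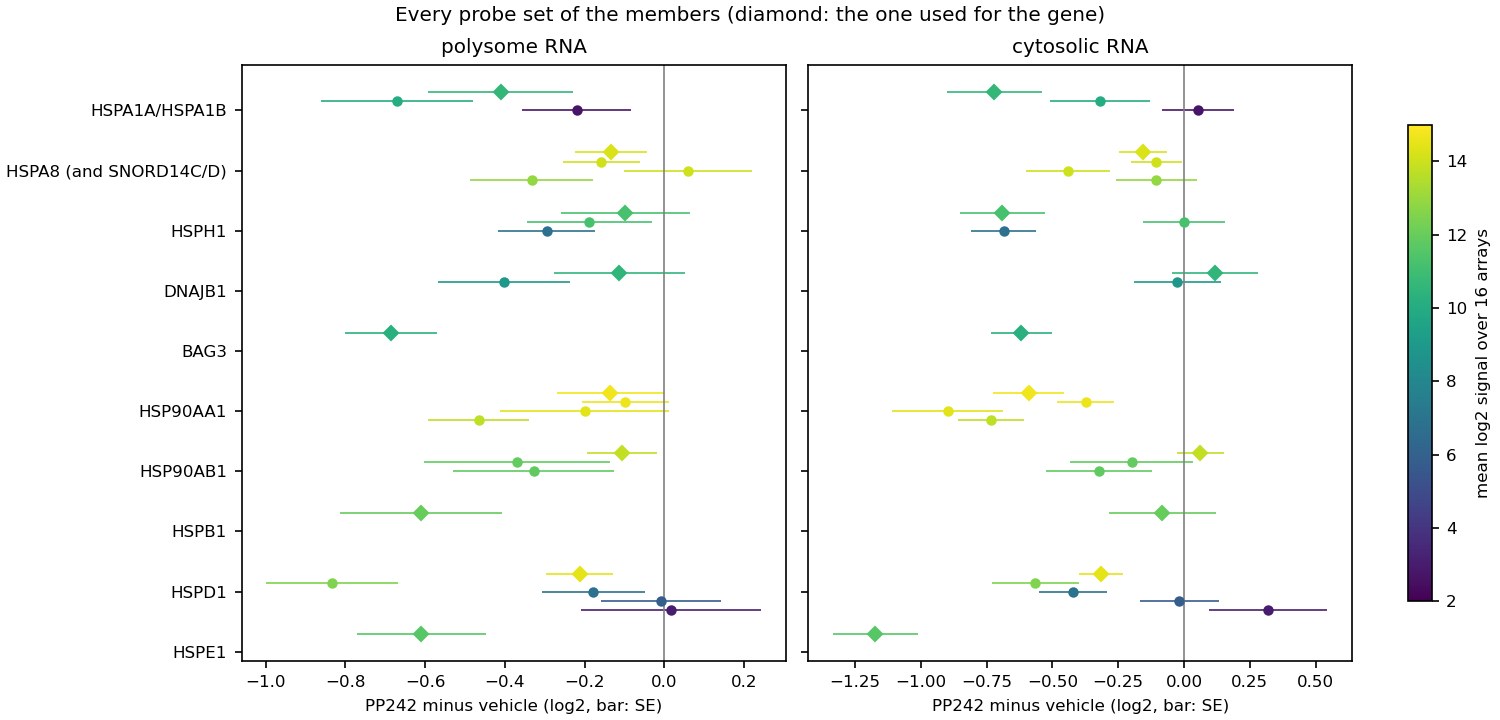
PP242 effect (log2) of every probe set that lists a member, in polysome and cytosolic RNA, coloured by mean signal, with bars for the standard error and a diamond for the one used. The HSP90AA1 probe sets all lie below 0 in cytosolic RNA, and those of HSPH1 run from -0.69 to 0.00.

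Members were also set against each other over the 16 arrays, after the mean of each RNA pool was taken off. HSP90AA1 and HSPH1 varied most alike, at r = 0.96, followed by BAG3 with HSPE1 and HSPA1A/HSPA1B with HSPH1, both at 0.88. The lowest values were -0.27, for DNAJB1 with HSPE1 and for HSPH1 with HSPB1. These describe 16 arrays that share treatment, replicate number and normalization. Among features above the median mean signal, those most like BAG3 were C9orf40 (r = 0.98), TFDP1, the dimer partner of E2F factors (0.97), ENOPH1, an enzyme of methionine salvage (0.97), and NUP88, a nuclear pore protein (0.97). TFDP1 fell by 1.14 on polysomes and by 0.91 in cytosolic RNA. Those most like HSPA8 were PDCD7 (r = 0.92), TMEM201 (0.89), nucleolin, NCL (0.89), and the asparaginyl-tRNA synthetase NARS1 (0.89).

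The rest of the chaperone network was followed with 77 measured genes of 83 listed. In polysome RNA 3 were called higher, 21 lower and 53 neither, with a median effect of -0.18, and in cytosolic RNA 6 higher, 22 lower and 49 neither, with a median of -0.16. With the replicate block these were 5 higher and 24 lower on polysomes and 9 higher and 23 lower in cytosolic RNA. Each list count below stands against 6.46% of all features called lower on polysomes and 7.77% in cytosolic RNA, and in lists of 5 to 12 genes a single call is already as large a share as that background. Among 9 other HSP70 family genes, 4 fell in each pool and none rose. HSPA14, a ribosome-associated HSP70, fell by 1.62 ± 0.15 on polysomes and by 1.38 ± 0.15 in cytosolic RNA, and HSPA2, a member abundant in testis, fell by 1.52 ± 0.18 and 1.53 ± 0.18. HSPA4L, a relative of HSPH1, fell by 0.73 ± 0.15 and 0.83 ± 0.15.

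Of 12 J-domain genes other than DNAJB1, 1 rose and 4 fell on polysomes, and 2 rose and 3 fell in cytosolic RNA, with 2 and 5 on polysomes under the block. DNAJC9, a histone co-chaperone, fell by 1.31 ± 0.09 and 1.43 ± 0.09. On polysomes DNAJC8 fell by 0.85 ± 0.15 and DNAJA1, another cytosolic HSP70 partner, by 0.55 ± 0.12. DNAJB2 and DNAJB6, which act against aggregation, rose in cytosolic RNA by 0.68 ± 0.14 and 0.66 ± 0.13. Among 8 other nucleotide exchange and BAG genes, 1 fell on polysomes, and 1 rose and 2 fell in cytosolic RNA. Under the block 1 rose and 2 fell on polysomes and 2 rose and 2 fell in cytosolic RNA. BAG2, an inhibitor of the ubiquitin ligase CHIP, fell by 0.94 ± 0.15 and 0.97 ± 0.15, whereas BAG6, a quality control factor for membrane proteins, rose by 0.73 ± 0.17 in cytosolic RNA.

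Of 9 HSP90 co-chaperones, 5 fell on polysomes and 5 fell and 1 rose in cytosolic RNA, with medians of -0.68 and -0.41, and 6 fell on polysomes under the block. FKBP5, an immunophilin of steroid receptor complexes, fell by 0.80 ± 0.11 and 0.69 ± 0.11, p23 (PTGES3) by 0.74 ± 0.10 and 0.83 ± 0.10, and CACYBP by 0.77 ± 0.11 and 0.65 ± 0.11. None of 7 other small heat shock protein genes was called under PP242. Of these, CRYAB, HSPB6 and HSPB8 had group means of 3.4 to 5.1, near or below the array medians. For them the lack of a call says little. The cytosolic chaperonin TRiC had 3 of 7 measured subunits lower in each pool, CCT6A by 0.65 ± 0.13 and 0.66 ± 0.13 and CCT5 by 0.65 ± 0.13 and 0.41 ± 0.13. Prefoldin had 1 of 5 lower in each pool (2 in cytosolic RNA under the block), VBP1, by 0.74 ± 0.11 and 0.85 ± 0.11.

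Of 12 other mitochondrial chaperones and proteases, 3 fell and none rose in each pool, apart from 1 that rose in cytosolic RNA under the block. GRPEL2, a nucleotide exchange factor of mitochondrial HSP70, fell by 0.75 ± 0.22 on polysomes and by 1.26 ± 0.22 in cytosolic RNA, and CLPX, the unfoldase of the matrix protease, fell by 1.00 ± 0.28 in cytosolic RNA. Of 5 genes of BAG3-linked selective autophagy, SQSTM1, the cargo receptor p62, was called in both pools, with a second gene higher in cytosolic RNA under the block. SQSTM1 rose by 1.04 ± 0.16 on polysomes and by 1.29 ± 0.16 in cytosolic RNA, opposite in sign to BAG3. In the list of heat shock factors and their regulators, with 5 measured genes, 1 rose on polysomes, the acetyltransferase EP300, by 0.57 ± 0.12. HSF1 itself rose by 0.49 ± 0.16 in cytosolic RNA (limma adjusted p = 0.0430) and SIRT1, the deacetylase that acts on it, fell there by 0.81 ± 0.23.

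**Figure D5:**
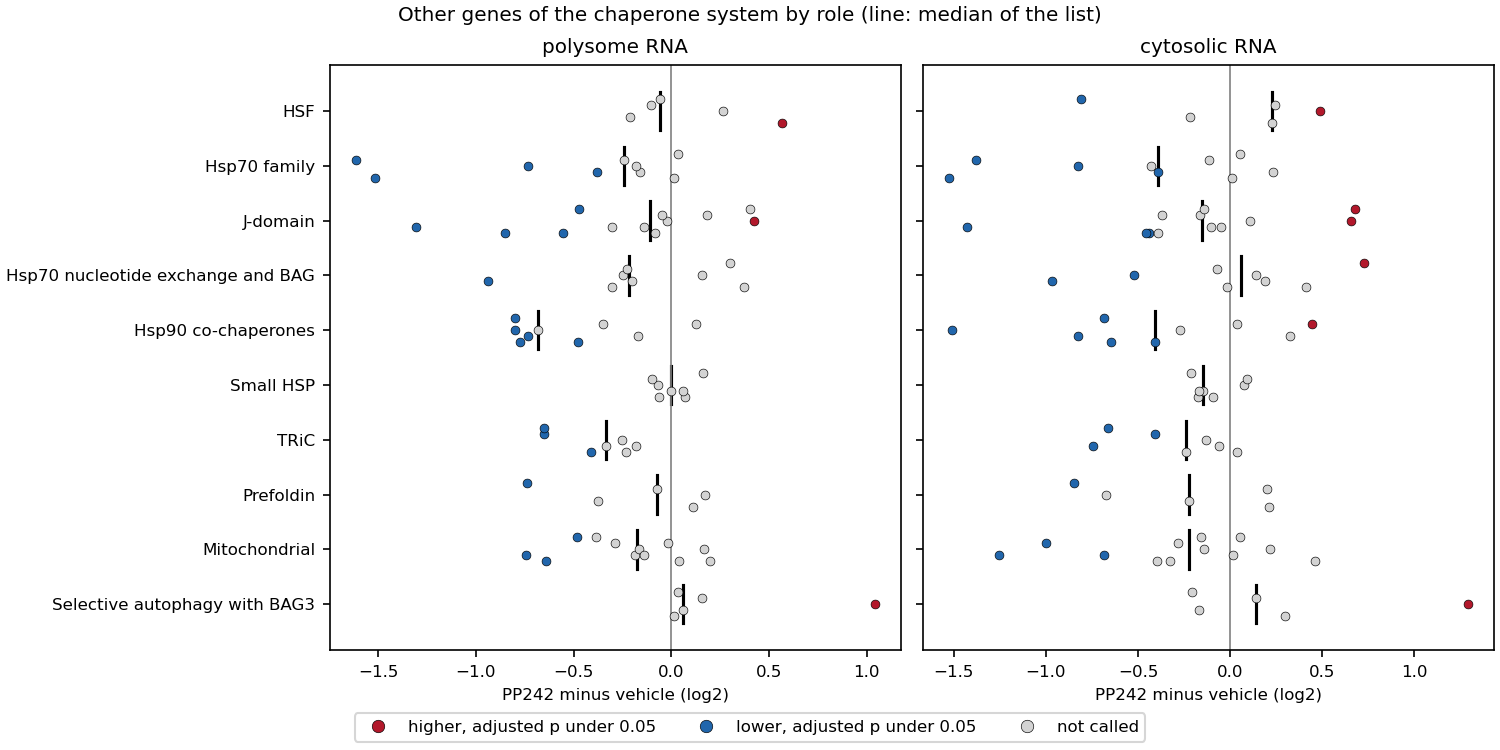
PP242 effect (log2) of each measured gene in the chaperone lists, in polysome and cytosolic RNA, with genes called higher in red, genes called lower in blue, the others in grey and a line at each list's median. HSPA14 at -1.62 and SQSTM1 at 1.04 are the lowest and highest polysome values, and the small heat shock proteins stay near 0.

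The label of the line was set against markers. The keratins KRT8, KRT18 and KRT19 had mean signals of 12.4, 13.8 and 10.7, and KRT7 had 6.33. The epithelial adhesion genes EPCAM and CDH1 were low, at 2.79 and 3.44. Acinar, islet, leukocyte and endothelial lists had no called gene under PP242. PTPRC, the leukocyte antigen CD45, was at 3.17. The other leukocyte genes CD14, ITGAM and CD3E were at 5.39, 5.23 and 5.17, slightly above the array medians. The epithelial list, with 2 of 6 genes higher on polysomes and 3 of 6 higher in cytosolic RNA, averaged 8.10 to 8.69 in cytosolic PP242 arrays and 7.63 to 7.79 in cytosolic vehicle arrays. In the fibroblast list COL1A2 was at a mean of 11.5. COL1A1, COL3A1, PDGFRB, DCN and LUM were lower, at 6.95, 6.77, 6.10, 5.18 and 3.27. Of these 6 genes, 2 were lower after PP242 in each pool. The list averaged 6.33 to 6.53 in cytosolic PP242 arrays and 6.63 to 6.83 in cytosolic vehicle arrays. The part of these shifts in the chaperone results was not tested.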

How the data were processed

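Gene expression was measured on 16 Affymetrix 3′ arrays, 4 in each of 4 groups. The authors deposited values on the log2 scale, made with RMA per the submitters' processing notes (version not stated). Normalization across arrays is not given in the sources used here. Values ran from 1.65 to 14.61 with 0 missing. Of 54613 probe sets, 41091 list 1 gene, 1801 list several and 11721 are not in the annotation table used. The highest-mean probe set of each annotation was kept, giving 20875 features, without a filter on low signal, so all 10 members entered. The number of arrays limits the precision.

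limma 3.58.1 in R 4.3.3 (statmod 1.5.0) fitted 1 mean per group over all 16 arrays with an intensity trend. P-values are two-sided and adjusted by Benjamini-Hochberg over all features. A value after ± is the limma standard error, or the SD where stated. The labels do not state whether replicates were separate cultures, so p-values may measure technical spread only. Same-numbered arrays deviated together in 16 of 16 comparisons between groups (r 0.162 to 0.510) and were the best match in 13 of them. Replicate numbers thus appear to pair the samples, though not in every comparison. The blocked value is given where it changes the call of a member or the count of a list.

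The text names the members and the 4 features most like BAG3 and HSPA8. It also names genes from among the 3 called genes of smallest p per chaperone list and contrast, but not all of these. The members and lists were chosen with earlier results of these data known. Alternatives were other scalings, probe set rules, a signal filter at the 40th percentile, array weights, fits on fewer arrays and the block. The steps were tested on simulated data. No protein sequence was used here.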

Additional observations from a re-analysis of the deposited data

Results flagged for a closer look

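Dixon's test was applied to each of the 10 members in each of the 4 groups, and 3 of these 40 sets of 4 arrays held an array set apart from the others. All 3 were in polysome RNA after PP242. Chance marks about 1 group in 20. For HSPE1, replicate 3 read 10.43, below the nearest array at 10.91, with a gap of 0.857 of the range, against a critical value of 0.829. Without that replicate the HSPE1 polysome effect was -0.59 and stayed called (limma adjusted p = 0.0292). For HSPH1, replicate 2 read 10.63, above the nearest at 10.54 (0.9 of the range), and for HSP90AA1, replicate 1 read 13.72, below the nearest at 13.82 (0.833). Neither member was called on polysomes with or without that replicate.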

How the results depend on the processing

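The signs and calls of BAG3 in both pools and of HSPE1 in cytosolic RNA held under every alternative run, and no member's association effect was called under any. Of the 10 members, 2 were called on polysomes: 4 with the replicate number as a block, the signal filter, array weights or only the 8 arrays compared, 3 without the 2 arrays of lowest weight (chosen after seeing the data), 1 with quantile scaling, cyclic loess or replicates 3 and 4 alone, and 1 to 2 when leaving out a replicate. In cytosolic RNA 6 were called: 3 with replicates 3 and 4 alone or without the 2 arrays of lowest weight, and 2 to 6 when leaving out a replicate, with 3 without replicate 2 (HSPA1A, HSPH1 and HSPD1 lost) and 2 without replicate 4 (HSP90AA1 lost too). Averaging probe sets brought HSPA1A to -0.33 (limma adjusted p = 0.0882). That average took in 200799_at, whose mean signal of 2.63 lies below the array medians and which read 0.05 in cytosolic RNA. The probe set used, alone, read -0.72, so the lost call says little about HSPA1A. Polysome over cytosolic calls were 9 after PP242, 4 with replicates 3 and 4 alone, 5 with cyclic loess and 7 to 8 when leaving out a replicate; after vehicle they were 7, 3 with replicates 3 and 4 alone, 4 with quantile scaling or averaged probe sets and 5 to 7 when leaving out a replicate. Signs turned here with cyclic loess: after PP242 HSP90AA1 to -0.011, HSP90AB1 to -0.22 (-0.064 with quantile scaling), HSPD1 to -0.19 and HSPB1 to -0.082 (quantile -0.091); after vehicle HSPA8 to -0.036, HSP90AA1 to -0.54 (quantile -0.070), HSP90AB1 to -0.12, HSPD1 to -0.36 and HSPE1 to -0.093 (quantile -0.099). Of all features, 2757 were called on polysomes (block 4223, replicates 3 and 4 alone 1093, leaving out a replicate 1667 to 1957) and 3392 in cytosolic RNA (block 5174, 1070, 1588 to 3458, only 8 arrays 2110, without the 2 arrays of lowest weight 2031). On polysomes the count over all features was 2990 of 12525 with the signal filter, 3887 with array weights and 3224 with only the 8 arrays. Of these, 1500, 1862 and 1606 were lower, against 1348 in the main fit. It was 3776 without the 2 arrays of lowest weight, 2372 with quantile scaling and 2917 with cyclic loess. For association 0 features were called, 1 with averaged probe sets and 5 by regression. Polysome over cytosolic calls were 11304 after PP242 (7067 with replicates 3 and 4 alone, 6619 with the signal filter, 9285 to 10325 leaving out a replicate) and 10994 after vehicle (6738, 7055 and 9086 to 9846). The filter and the smaller fits test fewer features or arrays; for other changes the cause was not tested. The pools' separate scales limit every polysome over cytosolic value.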
